A study of Homo sapiens with 48 samples.

Results

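The samples described here are the 6 arrays of set B among the 48 arrays of the series. They were chosen by their titles, as the 3 B samples labelled for imatinib and the 3 B samples labelled mock, and every probe set other than the array's own controls was taken. All 6 arrays carry RNA of K562, an established human leukaemia cell line that expresses the BCR-ABL1 fusion kinase. The mock group (3 samples) was mock treated, and its RNA was prepared with Trizol and then a column kit. The imatinib group (3 samples) had 1 micromolar imatinib, an inhibitor of the ABL kinase, for 24 h, and its RNA was prepared with the column kit alone, so that treatment and RNA isolation cannot be told apart in these data. Labelled targets were made in both groups from about 8 µg of total RNA. The keywords of the imatinib samples also read mock treated, and their titles and descriptions were followed here. The labels give 8 such sets, lettered A to H, without saying what a letter stands for, and nothing in them says that the 3 samples of a group came from separate cultures. The p-values therefore rest on a spread between samples that could be technical alone.

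BCR-ABL1 is a kinase that is always switched on and that drives proliferation and survival through STAT5, RAS and ERK, and PI3K. Imatinib occupies the ATP site of the ABL kinase and shuts this signalling off. K562 cells sit between the erythroid and megakaryocytic lineages and are known to make embryonic and fetal haemoglobins when pushed to differentiate. Red cell formation needs the transcription factors GATA1, TAL1 and KLF1, a steep rise in haem and globin synthesis, and a membrane skeleton specific to the red cell.

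Set B was picked because its mock arrays lie close together. The median standard deviation (SD) of a probe set over the 3 mock arrays was 0.0615 log2 units in set B and between 0.0798 and 0.147 in the mock groups of the other 7 sets. These values describe the choice and are given without a test. The mean level over probe sets was highest in set B as well, 7.60 against 5.89 to 7.18 in the other sets. The part of level in the small SD was not tested. The standard errors and calls below rest in part on the spread of these mock arrays, and so on the choice. Over the imatinib arrays the median SD was 0.0793 in set B, and set D had a smaller one, 0.0626. Array medians were 7.45 to 7.47 in the mock samples and 7.52 to 7.56 in the imatinib samples. Pearson correlations over all probe sets were 0.996 to 0.998 between arrays of one treatment and 0.964 to 0.971 between arrays of different treatments. No 2 arrays were identical, since the closest pair differed by up to 0.784 on a single probe set. The median standard error (SE) of the treatment difference was 0.0647, so that the median 95% interval reached 0.144 to either side, and the smallest difference that passed the test was 0.137. The number of arrays limits this precision.

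A large part of the measured transcriptome differed between the imatinib and mock samples of set B. Of 22215 probe sets tested, 10598 (47.7%) had a limma adjusted p under 0.05, against 7264 with the spread of all 48 arrays. The 10598 comprised 6179 higher (27.8% of those tested) and 4419 lower (19.9%) with imatinib. Over 11963 genes, each represented by its brightest probe set, 6157 (51.5%) passed, 3606 higher (30.1%) and 2551 lower (21.3%). These shares are the background against which the counts of members below are to be read. "Rose" and "fell" are used below for probe sets that passed this test, and every difference is imatinib minus mock on the log2 scale with its SE.

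Most of these calls were small. Differences under 0.25 made up 3256 calls, and differences of 0.25 to 0.5 made up 4145 more, so that 69.8% of the calls were under 0.5. The next band, 0.5 to 1, held 2264 calls, and 933 probe sets changed at least 2-fold, 329 of them higher and 604 lower. Direction depended on size: of the calls under 0.25, 2603 were higher and 653 lower, whereas from 0.5 to 1 there were 765 higher and 1499 lower. The smallest calls also depended on how the arrays were scaled. When each array was centred on its own median, the median difference over all probe sets moved from 0.077 to -0.001, and the share of calls that were higher went from 58.3% to 38.2%. With quantile normalization it was 52.4%. Calls that kept their sign and passed under all 3 scalings numbered 507 of the 3256 under 0.25, 3510 of the 4145 from 0.25 to 0.5, 2258 of the 2264 from 0.5 to 1, and all 933 from 1 upward. The excess of rises also lay in dim probe sets: probe sets below the median level had 2729 rises and 871 falls, and those at or above it 3450 and 3548. Dim probe sets and array scaling move with these small rises, and their part in them was not tested.

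**Figure D1:**
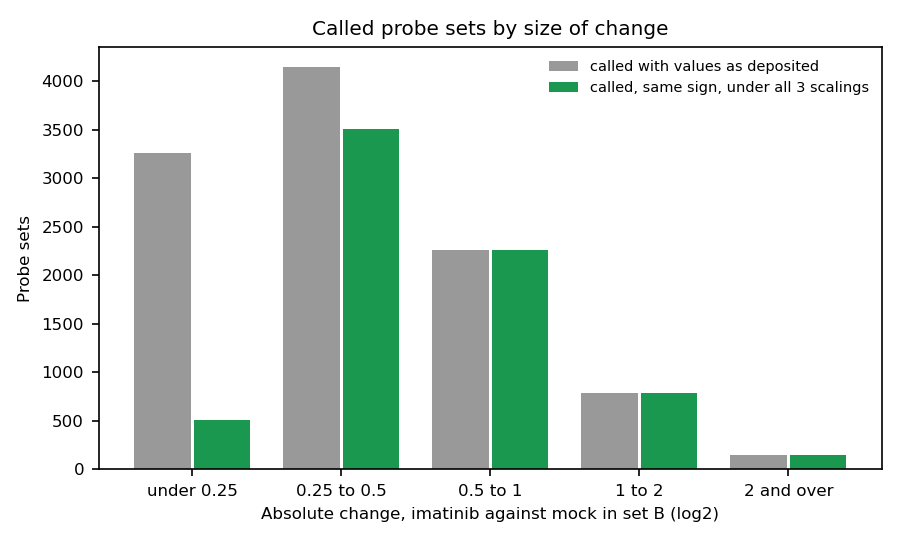
Number of probe sets past limma's adjusted p of 0.05 in set B (vertical axis) by the absolute log2 difference between imatinib and mock (horizontal axis); grey bars use the deposited values and green bars count those called with the same sign under all 3 scalings. Of 3256 calls under 0.25, 507 held under the 3 scalings, against all 933 of 1 and over.

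With each gene taken by its brightest probe set, the steepest rise belonged to ALAS2, the erythroid form of the first and rate-setting enzyme of haem synthesis. Its log2 levels were 7.47, 7.70 and 7.36 in the mock samples and 12.43, 12.34 and 12.52 with imatinib. The groups lie far apart, by 4.92 ± 0.09 (a 30.3-fold difference, limma adjusted p = 2.8e-10). The other haem synthesis enzymes followed it with 1 exception. On this list of 8, the test called 7 higher and 1 lower. The median difference was 1.84, against 0.09 over all genes. PPOX, the enzyme that oxidises protoporphyrinogen, rose by 3.44 ± 0.06 from 7.92, 8.01 and 7.85 to 11.42, 11.34 and 11.33. FECH, which inserts iron into protoporphyrin, rose by 2.42 ± 0.06 from 9.61, 9.60 and 9.70 to 12.10, 12.03 and 12.04. Both groups of 3 are tight in each of these genes. ALAD rose by 2.53, UROS by 1.26, CPOX by 1.19 and UROD by 0.78. The exception was ALAS1, the housekeeping form of the same enzyme as ALAS2, which fell by 0.41 ± 0.06 (8.94, 8.95 and 8.79 in mock, 8.44, 8.46 and 8.53 with imatinib).

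The ALAS2 promoter is shown because this gene had the steepest rise and because its start region carries a site of the type that GATA1 reads. The stretch runs from 250 bases before to 50 after the RefSeq start (GRCh38.p14, chrX:55030928-55031227, minus strand, written along the gene), and capitals mark the match to AGATAA, which here lies on the opposite strand and begins at position -127 from the start.

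ALAS2: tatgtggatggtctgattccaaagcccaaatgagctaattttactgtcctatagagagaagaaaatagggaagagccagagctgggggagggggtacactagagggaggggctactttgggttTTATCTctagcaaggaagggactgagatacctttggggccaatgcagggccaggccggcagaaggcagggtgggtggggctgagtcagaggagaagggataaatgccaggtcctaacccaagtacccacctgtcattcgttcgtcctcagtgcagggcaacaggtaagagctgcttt

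Promoters of this window were found for 40 of the 54 measured members of 5 red cell lists (transcription factors, haem synthesis, globins, membrane and surface, enzymes), and AGATAA on either strand was in 12 of them (30.0%). It was in 10.5% of all 27305 promoters in the RefSeq table and in 6.79% of those of measured genes. Besides ALAS2, the members with a match that rose are LYL1, TAL1, CPOX, HBD, EPB42, ICAM4, KEL, RHD, SPTB and PKLR, by 0.45 to 2.60. ADD3 has a match as well and fell by 0.68. A match is a description of the letters and not a site shown to be used.

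Globins rose together. All 6 measured members of the globin list rose under the deposited values and under both other scalings, with a median of 1.69. This list counts in AHSP, which is not a globin. HBZ, the embryonic alpha-like globin, went from 11.24, 11.43 and 11.54 to 14.45, 14.56 and 14.33, a rise of 3.04 ± 0.09 (limma adjusted p = 3.2e-09). AHSP, the chaperone of free alpha globin, rose by 2.58 ± 0.14, and its mock values were less even than most (7.53, 7.52 and 6.89 against 9.93, 9.85 and 9.90). HBD, the delta chain, rose by 2.07, HBB, the adult beta chain, by 1.32, HBQ1 by 1.12 and HBE1, the embryonic epsilon chain, by 0.94. HBE1 was already near the top of the array's scale, at 13.37, 13.46 and 13.35 in mock and 14.35, 14.34 and 14.31 with imatinib. The probe sets of the alpha and gamma chains carry a pair of symbols each, since these genes are near-identical copies, and were not named here.

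The membrane and surface of the red cell changed as a group, with 18 of 20 measured members higher and 2 lower and a median of 1.61. AQP1, the water channel, went from 7.41, 6.93 and 7.004 to 11.20, 11.13 and 11.13, a rise of 4.04 ± 0.11. SLC4A1, the band 3 anion exchanger, went from 8.49, 8.51 and 8.30 to 11.55, 11.82 and 11.93, a rise of 3.33 ± 0.10. ADD2, the beta subunit of adducin, rose by 2.92 ± 0.06 from 8.66, 8.71 and 8.77 to 11.62, 11.61 and 11.66. Other ADD2 probe sets rose by less, 0.50 and 0.91. The groups are apart in all 20 members, and they are apart in 13227 of the 22215 probe sets tested. Further rises were 2.60 in KEL, 2.43 in EPB42 and 1.05 in ANK1, the ankyrin that ties band 3 to spectrin. The 2 falls were STOM, stomatin, by 0.99, and ADD3, the gamma adducin of non-erythroid cells, by 0.68. Among red cell enzymes, 7 of 10 rose and none fell (8 and none with quantile normalization), with PKLR, the red cell and liver pyruvate kinase, up by 2.38, BLVRB, a biliverdin reductase, by 1.76 and CAT, catalase, by 1.35.

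Iron genes were more mixed, with 5 of 9 higher and 2 lower. SLC25A37, the mitoferrin that carries iron into erythroid mitochondria, rose by 2.31 ± 0.06 and TFR2, a transferrin receptor that signals iron load, by 1.81 ± 0.06. TFRC, the main transferrin receptor, had 13.76, 13.68 and 13.78 in mock and 13.85, 13.84 and 13.85 with imatinib, a difference of 0.10 with a 95% interval of -0.01 to 0.22 that did not pass. FTL, the ferritin light chain, fell by 0.23, and ISCU, the iron-sulphur cluster scaffold, by 0.39.

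Of the erythroid transcription factors, 7 of 10 rose and none fell, with a median of 0.78. TAL1 went from 8.17, 8.06 and 8.11 to 10.51, 10.50 and 10.55, a rise of 2.404 ± 0.06 (limma adjusted p = 9.8e-10). KLF1, the activator of adult beta globin, rose by 2.36 ± 0.12 from 8.75, 9.17 and 9.32 to 11.48, 11.48 and 11.35. GFI1B, a repressor needed for red cells and platelets, rose by 1.93. GATA1 itself rose by 0.52 ± 0.08, from 9.84, 10.02 and 10.15 to 10.61, 10.54 and 10.42, so its groups are apart but close. BCL11A, LDB1 and CBFA2T3 did not pass, at 0.08, 0.06 and -0.06. Factors of earlier progenitors split: 3 of 10 fell (4 of 10 under both other scalings) and 2 rose. The other 5 did not pass, so the called share on this list is near the background of 51.5%. Its median was 0.07, against 0.09 over all genes. The list as a whole therefore shows no common direction, and the falls below are those of single genes. HHEX fell by 3.72 ± 0.07, from 10.98, 10.96 and 10.99 to 7.10, 7.28 and 7.39. MYB fell by 2.04 ± 0.08 (11.64, 11.56 and 11.63 to 9.45, 9.52 and 9.74), and GATA2 by 1.79 ± 0.08. Other GATA2 probe sets gave -0.60 and -0.15, and the latter did not pass. IKZF1, a lymphoid and erythroid factor, rose by 0.34.

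**Figure D2:**
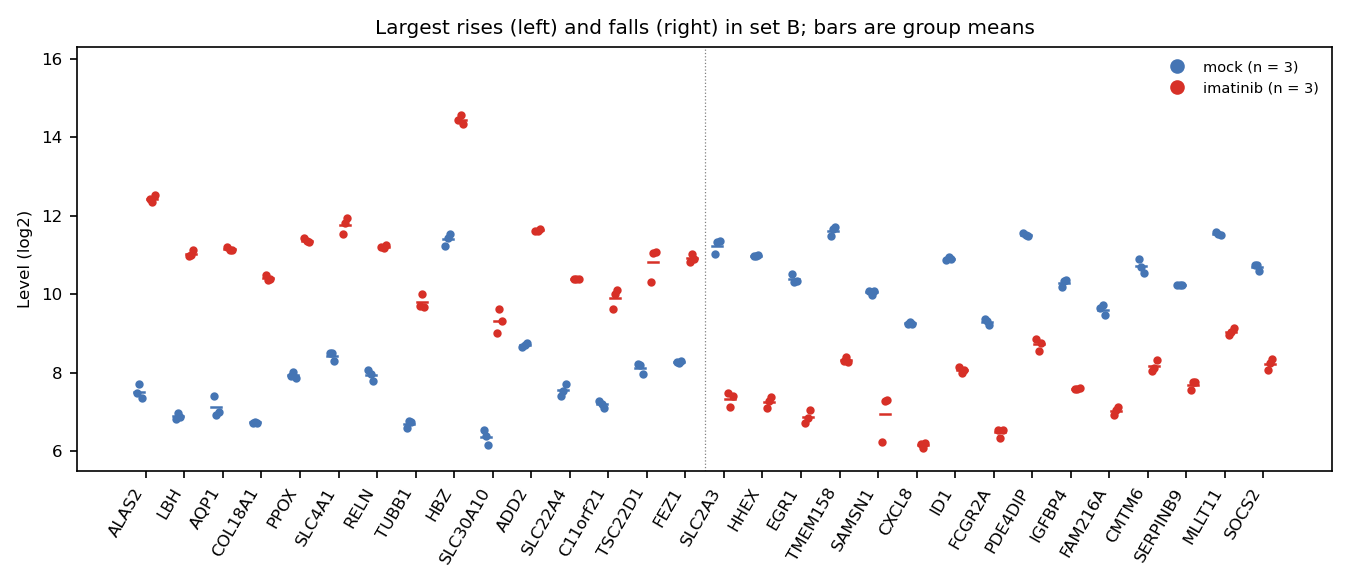
Log2 level (vertical axis) of the 15 genes with the largest rises and the 15 with the largest falls in set B among brighter probe sets (horizontal axis), for 3 mock (blue) and 3 imatinib (red) samples; short bars are group means. ALAS2 goes from 7.36 to 7.70 in mock up to 12.34 to 12.52 with imatinib, and SAMSN1 has 1 imatinib sample at 6.23 and the other 2 at 7.27 and 7.31.

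The other large rises were not on a red cell list. LBH, a transcriptional cofactor of development, rose by 4.14 ± 0.07 (6.81, 6.98 and 6.87 to 10.96, 11.01 and 11.12) and COL18A1, a basement membrane collagen, by 3.69 ± 0.06 (6.72, 6.75 and 6.72 to 10.49, 10.37 and 10.39). RELN, a secreted matrix protein, rose by 3.28, TUBB1 by 3.09, SLC30A10, a manganese exporter, by 2.96, and SLC22A4, a carnitine and ergothioneine carrier, by 2.84. C11orf21, TSC22D1 and FEZ1 rose by 2.71, 2.68 and 2.64. TSC22D1 had 1 imatinib sample below the others (10.31 against 11.04 and 11.07).

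The steepest fall, by the same rule, was SLC2A3, the high-affinity glucose transporter GLUT3, from 11.03, 11.32 and 11.35 to 7.48, 7.14 and 7.39. Its groups lie 3.89 ± 0.11 apart (limma adjusted p = 2.7e-09). Its other 2 probe sets gave -5.10 and -3.76. A probe set of SLC2A3 cannot be separated with certainty from its near-identical neighbour SLC2A14. After HHEX came EGR1, described with the ERK genes below. TMEM158, a membrane protein induced by RAS, fell by 3.30. CXCL8, the chemokine interleukin 8, fell by 3.10. SAMSN1, an adaptor of haematopoietic cells, fell by 3.11 ± 0.23 with the uneven imatinib values shown in the plot of the largest changes. The remaining differences were -2.85 in ID1, -2.82 in FCGR2A, -2.79 in PDE4DIP, -2.70 in IGFBP4, -2.58 in FAM216A, -2.55 in CMTM6, -2.54 in SERPINB9, -2.51 in MLLT11 and -2.48 in SOCS2. FCGR2A shares sequence with its paralogs, so its fall may hold signal of FCGR2C.

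Genes that BCR-ABL1 signalling is known to keep on were mostly lower. Among STAT5 and JAK targets, 9 of 14 were called lower and 1 higher (median -0.79). SOCS2, a feedback inhibitor of cytokine receptors, went from 10.73, 10.75 and 10.60 to 8.07, 8.23 and 8.34. CISH, of the same family, fell by 1.51 ± 0.07 (10.19, 10.34 and 10.40 to 8.87, 8.70 and 8.83). ID1, an inhibitor of helix-loop-helix factors, went from 10.88, 10.95 and 10.90 to 8.13, 7.98 and 8.07. Each of these has its groups well apart. MYC fell by 1.34 ± 0.05 (11.39, 11.36 and 11.42 to 10.08, 10.08 and 10.00), PIM1, a serine kinase, by 0.77 and BCL2L1, the survival gene that encodes BCL-XL, by 0.93. The D-type cyclins parted: CCND2 fell by 1.92 ± 0.07, CCND3 rose by 1.28 ± 0.07 (10.84, 10.99 and 11.09 to 12.20, 12.26 and 12.30), and CCND1 did not pass at -0.07.

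Among ERK feedback and early response genes, 12 of 20 were called lower and 2 higher (median -0.59), and under both other scalings 13 lower and 1 higher. EGR1, an immediate early zinc finger factor, fell by 3.52 ± 0.09, from 10.50, 10.31 and 10.32 to 6.72, 6.83 and 7.04 (limma adjusted p = 1.6e-09). The other EGR1 probe set fell by much less, 0.80 ± 0.12. SPRY4 and SPRED2, which damp RAS and ERK signalling, fell by 1.66 and 1.39, IER2 by 1.45 and JUN by 1.37. Other SPRED2 probe sets, both dim, gave -0.16 and 0.07 and did not pass. DUSP6, another feedback gene of ERK, was dim and did not pass (0.11). DUSP1, a phosphatase of the stress kinases and ERK, rose by 1.35 ± 0.09 from 8.42, 8.37 and 8.29 to 9.47, 9.81 and 9.85. The kinase gene ABL1 itself rose by 0.35 ± 0.08 (10.99, 11.12 and 11.15 to 11.46, 11.56 and 11.28, limma adjusted p = 0.00499). BCR did not pass at 0.10 ± 0.08 (adjusted p = 0.289), and the mean over its probe sets gave 0.15 with an adjusted p of 0.0347. These probe sets do not tell the fusion transcript from the normal genes.

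Ribosome biogenesis fell almost as a whole, with 18 of 19 measured members lower, none higher and a median of -0.71 under the deposited values, and the same counts under both other scalings. DDX21, a nucleolar helicase, fell by 1.71 ± 0.06 (11.18, 11.04 and 11.19 to 9.37, 9.50 and 9.42) and NOP16 by 1.61 ± 0.06 (10.17, 10.26 and 10.23 to 8.57, 8.59 and 8.69). Of the other NOP16 probe sets, the brightest fell by 1.61 as well. Dim ones gave 0.17, a rise, and 0.13, which did not pass. NOLC1 fell by 1.504 ± 0.06 (11.15, 11.04 and 11.07 to 9.50, 9.58 and 9.66). Abundant nucleolar proteins moved less, with FBL, the rRNA methyltransferase, down by 0.51 and NPM1 by 0.24. The structural proteins of the ribosome gave few calls. Among 37 cytosolic ribosomal protein genes, 1 was called higher and 2 lower, and the median was 0.01 (1 and 6 after centring, 3 and 3 with quantile normalization). RPS6 had 13.93, 13.92 and 13.89 in mock and 13.93, 13.92 and 13.92 with imatinib, with a 95% interval of -0.10 to 0.13. The mock means of the 37 ranged from 8.12 to 14.44, with a median of 13.59 against a median level of 7.52 over all probe sets. The 3 that passed were RPS9 (0.24 ± 0.05), RPLP2 (-0.36 ± 0.09) and RPL35 (-0.16 ± 0.05), and the call of RPL35 was lost when mock sample 1 or 2 or imatinib sample 1 or 2 was left out.

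WDR43, a component of the complex that processes the small-subunit rRNA, was dim and fell by 1.28 ± 0.07, from 7.54, 7.78 and 7.65 to 6.40, 6.43 and 6.33. Its promoter is shown as an example of the E-box letters that MYC is known to read (GRCh38.p14, chr2:28894417-28894716, plus strand, 250 bases before to 50 after the start). Capitals mark CACGTG, which reads the same on both strands and begins 3 bases past the start.

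WDR43: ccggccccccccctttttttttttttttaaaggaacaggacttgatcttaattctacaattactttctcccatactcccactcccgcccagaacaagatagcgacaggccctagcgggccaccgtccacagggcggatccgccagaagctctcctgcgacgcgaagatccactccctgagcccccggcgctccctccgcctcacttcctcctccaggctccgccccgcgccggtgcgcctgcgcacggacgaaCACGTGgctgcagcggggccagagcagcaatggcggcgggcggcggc

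Of 16 ribosome biogenesis members with a promoter in the table, 7 (43.8%) hold CACGTG in this window, against 7.43% of all promoters and 9.51% of those of measured genes. All 7 (FBL, MRTO4, NOP2, PES1, RRP9, UTP20 and WDR43) fell, by 0.40 to 1.28, as did 18 of the 19 measured members with or without the letters.

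Translation factors and charging enzymes fell too. Among initiation and elongation factors, 15 of 25 were called lower and 3 higher (median -0.35). EIF2S1, the alpha subunit of the factor that brings the initiator tRNA, fell by 0.93 ± 0.06 (11.09, 11.08 and 11.11 to 10.05, 10.25 and 10.20), EIF1AX by 0.91 and EIF4A3 by 0.81. EIF2S3 rose by 0.70 ± 0.23, but its groups overlap (8.92, 9.30 and 9.88 against 9.91, 10.50 and 9.80), and its adjusted p went from 0.0303 to 0.064 after centring. EEF1A1 and EEF2, the elongation factors, did not pass at -0.09 and 0.10. Among cytosolic aminoacyl-tRNA synthetases, 15 of 16 were called lower and 1 higher (median -0.54). WARS1, for tryptophan, fell by 2.08 ± 0.07 (11.31, 11.27 and 11.32 to 9.11, 9.33 and 9.23), YARS1, for tyrosine, by 1.44 and GARS1, for glycine, by 0.93. EPRS1, which charges glutamate and proline, rose by 0.34 ± 0.06 (11.22, 11.12 and 11.21 to 11.52, 11.49 and 11.55), but as means over probe sets none of these genes was called higher.

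Several synthetases are targets of ATF4, the factor that answers amino acid shortage and ER stress. On the list of ATF4 and amino acid response genes, 17 of 21 fell and none rose, with the lowest median of the lists here, -1.02. After centring 18 fell and none rose, and with quantile normalization 15 fell and 1 rose. PSAT1, of serine synthesis, fell by 2.27 ± 0.08 (10.83, 10.80 and 10.83 to 8.56, 8.70 and 8.40). ASNS, asparagine synthetase, fell by 1.74 ± 0.06 (11.71, 11.67 and 11.59 to 9.87, 10.00 and 9.87), and MTHFD2, a mitochondrial folate enzyme, by 1.60 ± 0.07. TRIB3 and ATF3 each fell by 1.74 and SLC7A11, the cystine carrier, by 1.69. The messenger of ATF4 itself fell by 0.21 ± 0.06, a call lost with quantile normalization (-0.08). The ASNS promoter is shown because the amino acid response element described in this gene lies in it (GRCh38.p14, chr7:97872359-97872658, minus strand, written along the gene from 250 bases before to 50 after the start). Capitals mark the match to TGATGNAA, which begins at position -68 from the start.

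ASNS: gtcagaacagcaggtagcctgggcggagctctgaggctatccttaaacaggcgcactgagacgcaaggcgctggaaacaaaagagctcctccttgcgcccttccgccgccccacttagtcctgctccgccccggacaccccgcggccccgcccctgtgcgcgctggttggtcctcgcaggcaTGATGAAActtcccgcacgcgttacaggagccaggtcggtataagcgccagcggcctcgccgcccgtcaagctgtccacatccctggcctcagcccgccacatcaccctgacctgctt

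TGATGNAA on either strand was in 5 of 17 members of this list with a promoter (29.4%), against 3.67% of all promoters and 2.25% of those of measured genes. The element was described in ASNS, so the match there was known beforehand, and the share was not tested. ASNS, ATF3, CHAC1 and SLC7A1 hold it and fell by 1.02 to 1.74. SLC3A2, the heavy chain of amino acid carriers, holds it too and did not pass (-0.06).

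Chaperone genes were counted on a pair of lists. In the endoplasmic reticulum (ER), 12 of 17 chaperones and related genes were called lower and none higher (median -0.60). HSPA5, the BiP chaperone, fell by 1.71 ± 0.07 (11.54, 11.46 and 11.45 to 9.77, 9.89 and 9.67, limma adjusted p = 2.9e-08). XBP1, a factor of the unfolded protein response, fell by 1.57 ± 0.08, and HSP90B1 by 1.55 ± 0.08. CALR and CANX, the lectin chaperones, behaved differently and did not pass, at 0.01 (95% interval -0.13 to 0.15) and 0.09 (-0.05 to 0.24). The HSPA5 promoter is shown because it holds 1 full match to the ER stress element, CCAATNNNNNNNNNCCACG, in capitals below, beginning at position -66 from the start (GRCh38.p14, chr9:125241294-125241593, minus strand, written along the gene in the same window).

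HSPA5: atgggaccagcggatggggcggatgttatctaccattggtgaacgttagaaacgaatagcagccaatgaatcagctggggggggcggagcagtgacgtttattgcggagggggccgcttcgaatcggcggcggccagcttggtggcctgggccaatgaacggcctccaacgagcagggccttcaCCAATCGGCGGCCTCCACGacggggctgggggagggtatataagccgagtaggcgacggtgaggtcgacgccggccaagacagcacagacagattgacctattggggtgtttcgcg

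The element, on either strand, is in 6 of 16 ER list promoters (37.5%), 0.0806% of all promoters and 0.125% of those of measured genes. It is named for the stress response of such genes, so its share on this list is no independent finding and was not tested. HSPA5, XBP1, HSP90B1 and CRELD2 hold it and fell, by 1.71, 1.57, 1.55 and 0.31. CALR and CANX hold it as well, with the differences just given.

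Among cytosolic and mitochondrial chaperones 15 of 17 fell and none rose, with a median of -0.48 (14 fell and 1 rose with quantile normalization). CCT6A, a subunit of the ring that folds actin and tubulin, fell by 1.09, HSPA9, the mitochondrial HSP70, by 1.06 and CCT5 by 0.74. Of 27 proteasome genes, 19 fell and none rose, and the median was -0.25, led by PSMD12 (-1.28 ± 0.07), PSMD11 (-0.80) and PSMA3 (-0.75). With quantile normalization 12 proteasome genes fell and 2 rose, and the median was -0.14. Among splicing factors, 19 of 30 were called lower and 1 higher (median -0.40). TRA2B, SRSF7 and SNRPD1 fell by 0.96, 0.91 and 0.89, and HNRNPA1 rose by 0.65 ± 0.06 (11.34, 11.46 and 11.48 to 12.04, 12.14 and 12.07).

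**Figure D3:**
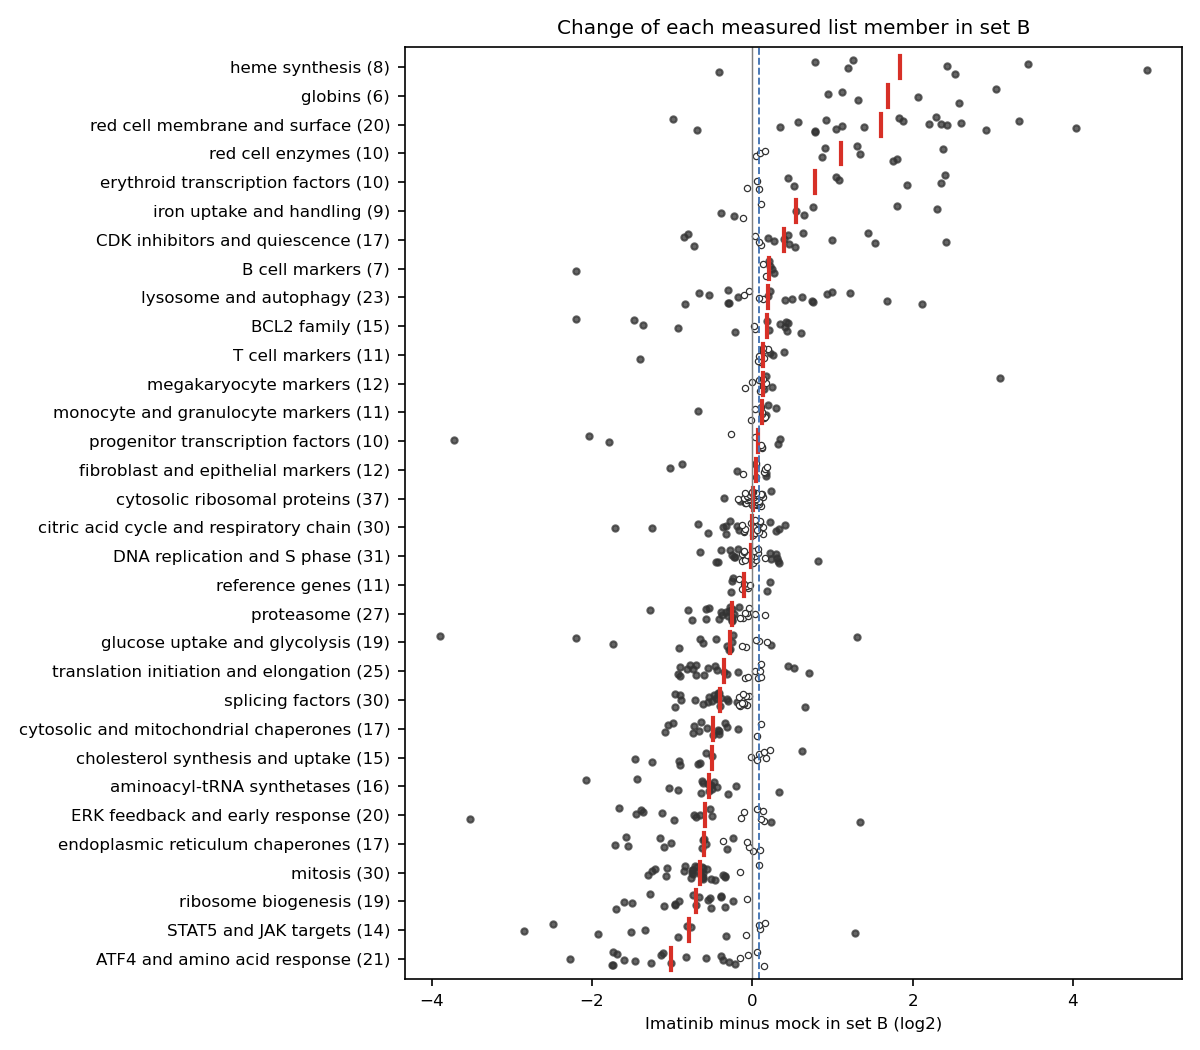
Log2 difference, imatinib minus mock in set B (horizontal axis), of each measured member of the 32 gene lists (vertical axis, number measured in brackets); filled points passed limma's adjusted p of 0.05, open points did not, red bars are list medians and the dashed line is the median of all genes, 0.09. Haem synthesis (1.84), the globin list with AHSP (1.69) and red cell membrane (1.61) have the highest medians, and the ATF4 list (-1.02) the lowest.

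Cell cycle genes differed by phase. Among mitosis genes, 28 of 30 were called lower and none higher (median -0.65 in the deposited values, with 29 lower after centring and 28 with quantile normalization). CDC20, an activator of the anaphase-promoting complex, fell by 1.30 ± 0.07 (10.17, 10.25 and 10.14 to 8.75, 8.88 and 9.03), KIF11, the spindle motor, by 1.25 ± 0.06 (9.12, 9.05 and 9.04 to 7.71, 7.91 and 7.85) and CCNB1, cyclin B1, by 1.08 ± 0.05 (10.68, 10.66 and 10.71 to 9.56, 9.62 and 9.63). The 2 that did not pass were ESPL1 (-0.16) and UBE2C (0.08). Replication genes had no common direction: of 31, 7 were called higher and 9 lower around a median of -0.02, and the balance was 5 and 13 after centring and 12 and 5 with quantile normalization. RFC3 (-0.65), CDC45 (-0.45) and CDC6 (-0.43), of clamp loading and origin firing, fell. PCNA, the sliding clamp, had 11.60, 11.58 and 11.54 against 11.35, 11.68 and 11.64, a difference of -0.02 with a 95% interval of -0.20 to 0.17. The called share, 16 of 31, is near the background of 51.5%. CDT1, the licensing factor, rose by 0.83 ± 0.17, with a wide mock group (8.65, 9.17 and 9.41 against 10.03, 10.02 and 9.66). Among CDK inhibitors and quiescence genes, 11 of 17 were called higher and 3 lower (median 0.39), and 10 and 3 under both other scalings. CITED2, a CBP-binding cofactor, rose by 2.42 ± 0.07, CDKN1C, the inhibitor p57, by 1.53 ± 0.05 and CDKN1B, the inhibitor p27, by 0.46 ± 0.08. CDKN1A, the inhibitor p21, did not pass at 0.11 (95% interval -0.09 to 0.32).

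The BCL2 family held changes in both directions, with 8 of 15 higher and 5 lower. MCL1, a short-lived survival protein, fell by 1.47 ± 0.06 (11.82, 11.86 and 11.83 to 10.31, 10.32 and 10.46). Of the death-promoting members, PMAIP1, or NOXA, fell by 2.20 ± 0.10 and BID by 1.36 ± 0.06, whereas BAD rose by 0.61, BAX by 0.44 and BCL2L11, or BIM, by 0.41. BAX and BCL2L11 lie below 7.52, the median level of all probe sets.

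Genes of glucose metabolism fell in part. On the list of glucose uptake and glycolysis, 12 of 19 genes were called lower and 2 higher (median -0.28), with 12 and 5 under quantile normalization. PKM, the pyruvate kinase of proliferating cells, fell by 2.20 ± 0.06 (11.70, 11.87 and 11.87 to 9.67, 9.60 and 9.58) while PKLR rose, and HK2, a hexokinase, fell by 1.74 ± 0.06. Both have another probe set that is dim. That of PKM did not pass at -0.12, and that of HK2 fell by 0.19. SLC2A1, the glucose transporter of red cells, rose by 1.30 ± 0.07 (8.99, 8.93 and 8.85 to 10.13, 10.21 and 10.35) while SLC2A3 fell. In the citric acid cycle and respiratory chain, 10 of 30 genes were called lower and 4 higher around a median of 0.00, with 9 higher and 7 lower under quantile normalization. The called share on this list, 46.7%, is near the background of 51.5%. IDH3A fell by 1.71 ± 0.11 and CYCS, cytochrome c, by 1.25 ± 0.07. In cholesterol synthesis and uptake, 8 of 15 were called lower and 1 higher (7 and 4 with quantile normalization, 8 and 3 as means over probe sets). These 9 calls among 15 genes stand beside a background of 51.5%, and the median went from -0.50 to -0.28 with means over probe sets. MSMO1 fell by 1.46, IDI1 by 1.26 and DHCR7 by 0.90. SREBF1, the lipogenic factor, rose by 0.62, and SQLE, the epoxidase of the pathway, did not pass at 0.14. On the list of lysosome and autophagy genes, 12 of 23 were called higher and 7 lower (10 and 7 after centring, 12 and 6 with quantile normalization), beside 3606 higher and 2551 lower over all genes. ASAH1, acid ceramidase, rose by 2.12 ± 0.07 (10.15, 10.10 and 10.07 to 12.13, 12.35 and 12.21), CTSB by 1.68 and PSAP by 0.998. The autophagy genes ATG5 and MAP1LC3B, picked out after their values were seen, fell by 0.84 and 0.54.

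Many calls were well under 2-fold, and the clearest of them were named by their p, so that their tight values are part of the choice. The rises under 0.5 with the smallest p were PRCP, PCNT, LETMD1, KPNA3, DVL2, PMPCB, MYO6 and CSNK2A2, at 0.46 to 0.50. DVL2, a relay of WNT signalling, had 8.82, 8.84 and 8.81 in mock and 9.28, 9.30 and 9.27 with imatinib, and LETMD1 had 10.12, 10.12 and 10.13 against 10.58, 10.65 and 10.59. The corresponding falls were TOR1A, WDR46, BCAS2, RNPEP, POLD2, XRCC5, MINDY3 and DHX30, at -0.46 to -0.49. WDR46, a nucleolar protein, had 8.50, 8.50 and 8.52 against 8.04, 8.04 and 8.02. XRCC5, the KU80 subunit of DNA end joining, had 11.44, 11.41 and 11.37 against 10.91, 10.93 and 10.94. The differences of these 16 genes kept their sign with quantile normalization. Centring shifted every difference by -0.078 and so could not turn them. On simulated data, 9 of 50 changes of 0.25 and 39 of 50 changes of 0.5 passed. Few probe sets changed there (161 calls, against 10598 in set B), which makes the adjusted threshold stricter. These shares are therefore not the sensitivity of the comparison in set B. For genes that did not pass, the interval says how much change remains possible. In 1836 of 11963 genes (15.3%) the whole 95% interval lay within 0.2 of no change, and 717 of these were among the 6958 genes at or above the median level.

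Some genes had probe sets that moved in opposite directions. Of 1098 genes with at least 2 called probe sets at or above the median level, 46 had 1 higher and another lower, and counting any level there were 107 of 1757. LGALS8, a galectin, had a probe set at 8.32, 8.10 and 8.02 in mock and 8.93, 9.06 and 9.08 with imatinib (0.88 ± 0.08) and another at 8.31, 8.48 and 8.40 against 7.72, 7.95 and 7.59 (-0.64 ± 0.09). PRKCA, a protein kinase C, had 0.92 ± 0.11 and -0.43 ± 0.06. MKRN1, a ubiquitin ligase, had 0.67 ± 0.07 and -0.56 ± 0.11. HNRNPD, the AU-rich element binder AUF1, had 0.98 ± 0.07 on 1 probe set and -0.44, -0.40 and -0.99 on others, the last of them dim. Both LGALS8 probe sets and both PRKCA probe sets moved with the same sign in all 7 other sets. RAB2A, at 0.36 and -0.45, gave a mean over its probe sets of -0.023 that did not pass. For such genes a single value does not stand for the gene.

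**Figure D4:**
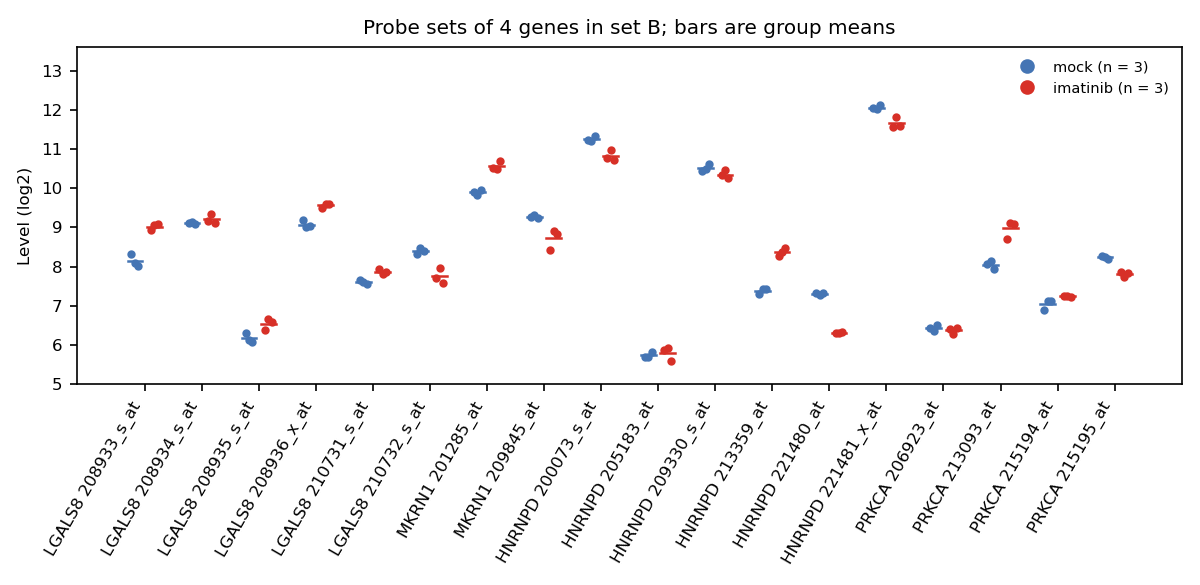
Log2 level (vertical axis) of every single-symbol probe set of LGALS8, MKRN1, HNRNPD and PRKCA (horizontal axis, by probe set) in 3 mock (blue) and 3 imatinib (red) samples of set B; short bars are group means. In LGALS8 the probe set at the left rose by 0.88 and the one at its right end fell by 0.64.

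The sets differ in the level of their values, and the part of level in what follows was not tested. Set B was set against the other 7 sets, whose 42 arrays hold the same comparison. Of its 10598 calls, 10473 (98.8%) had the sign of the mean difference over the other sets, and 7094 (66.9%) had the same sign in each of the 7. This last share rose with size. It was 35.9% of the calls under 0.25, 67.7% from 0.25 to 0.5 and 96.5% from 0.5 to 1, and all 933 calls of 1 and over had it. Of the 3256 calls under 0.25, 1145 (35.2%) were called in none of the other sets, each tested on its own 6 arrays, and of those from 0.25 to 0.5, 461 (11.1%). A call missing in another set does not show that the sets differ. Over all 22215 probe sets, called or not, the differences in set B had Pearson correlations of 0.848 to 0.949 with those of each other set. The labels do not say what a set is, so this likeness is not shown to be independent repetition. The test of the difference itself, set B minus the mean of the others with the spread of all 48 arrays, called 21 of 22215 probe sets (0.0945%), 5 of them above and 16 below the others. At an unadjusted p under 0.05 there were 1281 (5.77%). The SE of this test rests on the spread of arrays within each group and holds none of the variation of the difference from set to set. Its p-values therefore do not say whether set B lies outside that variation.

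The 3 genes named by these calls were TUBB1, KRT8 and CDR2. TUBB1, the platelet beta tubulin, rose by 3.09 ± 0.09 in set B (6.58, 6.77 and 6.75 to 9.70, 10.02 and 9.67) and by 2.29 on average in the others, a difference of 0.81 ± 0.16 (limma adjusted p = 0.0255), but the other sets range from 1.10 to 4.01 and so reach past set B. KRT8, a keratin, fell by 0.88 ± 0.13 in set B (8.91, 9.36 and 9.54 to 8.33, 8.40 and 8.45) and by between 1.28 and 1.91 in each of the other sets, a difference of 0.64 ± 0.13 (adjusted p = 0.0313). CDR2, an antigen of cerebellar degeneration, fell by 1.32 ± 0.11 in set B (8.43, 8.28 and 8.20 to 6.78, 6.95 and 7.22) and by between 0.45 and 0.87 in the others, a difference of -0.64 ± 0.14 (adjusted p = 0.0402). The number of calls depended on single arrays: in place of 21 calls, leaving out mock sample 1 of set B gave 4, mock sample 2 gave 0, mock sample 3 gave 36, and imatinib samples 1, 2 and 3 gave 0, 1 and 0. TUBB1, KRT8 and CDR2 lost their call under every one of these omissions except that of mock sample 3, while the differences stayed at 0.70 to 0.87 for TUBB1, 0.46 to 0.69 for KRT8 and -0.76 to -0.54 for CDR2. They lost it too after centring, with dimmer probe sets left out (2 probe sets called) and against sets C, E and G alone.

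**Figure D5:**
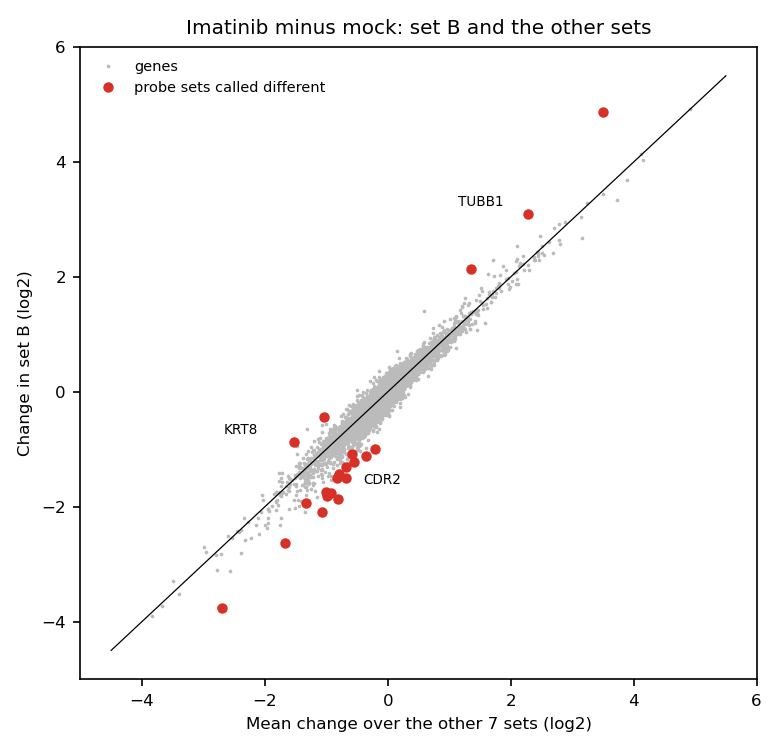
Log2 difference, imatinib minus mock, in set B (vertical axis) against the mean over the other 7 sets (horizontal axis) for all 11963 genes (grey), with the 21 probe sets whose difference between set B and the others passed limma's adjusted p of 0.05 in red; the line is equality. TUBB1 lies above the line (3.09 against 2.29), and CDR2 below it (-1.32 against -0.68).

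Markers of other cell types changed little, apart from single genes. On the megakaryocyte list of 12 markers, 4 were called higher and none lower (1 and 1 after centring, 2 and 1 with quantile normalization, 7 and none as means over probe sets), and the sum of their log2 levels was 83.5 to 83.7 in mock and 87.2 to 88.2 with imatinib. TUBB1 made up most of that difference, with GP9 next at 0.24 and GP1BA at 0.15. The calls of GP9 and GP1BA were lost after centring, and some were lost when a single array was left out (mock sample 1 or imatinib sample 3 for both, and mock samples 2 and 3 and imatinib sample 1 for GP1BA). Among 11 markers of T cells, 3 were called higher and 1 lower (2 and 1 after centring), with sums of 81.7 to 82.2 and 81.8 to 82.6. The fall was CD3D, by 1.41 ± 0.07 (9.15, 9.13 and 9.06 to 7.65, 7.84 and 7.63). Among 7 markers of B cells, the calls were 4 higher and 1 lower (2 and 1 under both other scalings), with sums of 54.5 to 54.7 and 53.3 to 54.0, the fall being CD24 by 2.20. Among 11 markers of monocytes and granulocytes, the calls were 3 higher and 1 lower (1 and 1 under both other scalings), none was at or above the median level, and the sums were 66.8 to 67.3 and 67.1 to 68.1. Among 12 markers of fibroblasts and epithelia, 2 were called higher and 3 lower (none and 4 after centring), with sums of 92.8 to 93.5 and 91.7 to 92.2, and KRT18 fell by 1.03. The called share was below the background of 51.5% on these lists except that of B cells (71.4%). In bulk RNA, fewer cells of a type and less RNA per cell cannot be told apart. Among 11 reference genes, 2 were called higher and 3 lower (1 and 6 after centring, 2 and 4 with quantile normalization): ACTB fell by 0.27, YWHAZ by 0.24 and TBP by 0.25, and SDHA and B2M rose by 0.22 and 0.18, the latter not after centring. The called share of the reference genes, 45.5%, is near the background of 51.5%.

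Control probe sets were compared as well. Bacterial poly-A RNAs were spiked at a lower level in the imatinib samples, for a planned log2 ratio of -1. Their 15 probe sets averaged 6.11 ± 0.03 (SD, n = 3) in mock and 5.91 ± 0.02 in imatinib, a difference of -0.20 (exact two-sided permutation p = 0.1, the smallest that 3 against 3 samples allow). The Dap control, the brightest of them at 7.69 in mock, had the largest difference, -0.65. The Thr, Phe, Lys and Trp controls averaged 6.53, 6.04, 5.27 and 5.01 in mock, below the median level of 7.52, and had differences of -0.18 to 0.007. The hybridization controls, added later in the procedure, were lower as well, by 0.25 (exact two-sided permutation p = 0.1). The difference between the 3' and 5' ends, a sign of RNA length, was -0.16 ± 0.16 in mock and -0.24 ± 0.04 in imatinib for actin (exact permutation p = 0.6) and 0.29 ± 0.10 and 0.28 ± 0.09 for GAPDH (p = 0.7, exact). The part of the isolation method in the expression differences was not tested.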

How the data were processed

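The authors deposited log2 values per probe set for each array. Normalization and software before deposit: not given in the sources used here. Of 22283 probe sets, 68 controls were left out of the tests, and 22215 were tested. Values ranged from 2.41 to 14.9. A platform annotation gave 1 symbol to 19065 probe sets (19053 matched in RefSeq), several to 1043 and none to 2107, and no gene was named from the last 2 kinds. The 6 arrays of set B were fitted with limma 3.58.1 (R 4.3.3; lmFit and eBayes), and p-values were adjusted by Benjamini-Hochberg over all probe sets. Set B was compared with the other sets in a 16-group fit of 48 arrays. A gene is its probe set with the highest mean in set B. Named genes were the 15 largest rises and 15 largest falls with separated groups at or above the median level of 7.52, up to 3 members per list by p, the 8 rises and 8 falls under 0.5 with the smallest p, up to 6 genes each way that differ from the other sets, 6 genes with opposed probe sets, and BCR and ABL1. Further list members were picked after their values were seen. The samples, the 32 lists and this rule were chosen with earlier results of these data known. Alternatives were centring, quantile normalization, the replicate block, a common spread, an intensity trend, dimmer probe sets left out, means over probe sets and leaving out each array. Tested on simulated data for set B alone (22215 probe sets), 9, 39, 49 and 50 of 50 changes of 0.25, 0.5, 1 and 2 were recovered, with 14 false among 161 calls. The adjusted threshold there was stricter than in the real values of set B, which gave 10598 calls. For set B against the other sets, 4, 38, 50 and 50 of 50 were recovered, with 10 false among 152 calls. Promoters come from a RefSeq table (GRCh38.p14, 1 listed start per gene).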

Additional observations from a re-analysis of the deposited data

Results flagged for a closer look

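Among genes whose brightest probe set is at or above the median level, 3 passed limma's test of set B against the mean of the other 7 sets. Their calls were lost when any array of set B other than mock sample 3 was left out. For TUBB1 set B stood above the others by 0.81, for KRT8 by 0.64, which is a smaller fall, and for CDR2 below them by 0.64 (-0.64), which is a larger fall. KRT8 and CDR2 lie outside the range of the other sets, and TUBB1 lies within it. Groups of 3 samples are too small for a test of outlying samples.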

How the results depend on the processing

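The count of changed probe sets in set B, 10598, was 8653 after centring, 8961 with quantile normalization, 9816 with the replicate block (5530 higher and 4286 lower), 7264 with the spread of all 48 arrays, and 7937 to 10861 when 1 array was left out. The count of higher probe sets, 6179, moved past the limit of 1.5 times to 3307 after centring, 3567 with dimmer probe sets left out and 3561 with the common spread. The 21 probe sets that differ between set B and the others became 11 after centring, 2 with dimmer probe sets left out, 16 with the replicate block and 0 to 36 when 1 array was left out. With each set divided by the SD of its levels over probe sets, the count was 24. Deviations of same-numbered samples from their group means correlated at -0.10, 0.09 and -0.23, and those of differently numbered samples at -0.09 to 0.21. With 3 samples per group these values cannot show that pairing is absent. With the block, RPL35, GP1BA and, for the difference from other sets, CDR2 lost their calls. The fall or rise turned in 2 results: RAB2A, -0.023 (adjusted p = 0.697) as a mean over probe sets, and the median of the BCL2 family, -0.093 with dimmer probe sets left out, which leaves fewer genes. List medians moved by over 0.1 without turning in 7 of the 32 lists compared with quantile normalization (the proteasome to -0.14, mitosis to -0.54), in 8 with means over probe sets (red cell enzymes to 0.70, BCL2 family to 0.035) and in 6 with dimmer probe sets left out. The cause was not tested. With the second versions of the poly-A probe sets, an alternative chosen after seeing the data, the spike difference was -0.29. The number of arrays limits what lies under 0.137.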

Other observations

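The other 18 probe sets that differed between set B and the other sets are mostly dim. Among others, set B was below all 7 other sets at DND1 (-1.13 against -0.56 to -0.21), SLC26A2 (-1.50 against -1.20 to -0.33), a sulphate carrier, SCG3 (-2.63 against -2.37 to -1.28), a protein of secretory granules, and a probe set of DAB2, an endocytic adaptor (-1.75 against -1.40 to -0.66). At 1 probe set of TCOF1, the treacle protein of rRNA transcription, set B fell by less than every other set (-0.43 against -1.39 to -0.71). At ACSL4 and ITPR1 set G fell further than set B.
Of the 10598 calls in set B, 224 had the opposite sign in 4 or more of the other sets, and 167 of these were under 0.25 in set B. Calls of 1 and over held none.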
